A study of Mus musculus with 6 samples.

Results

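The 10 genes described here encode the machinery that opens the cell cycle in G1: the D-type cyclins Ccnd1, Ccnd2 and Ccnd3, their kinases Cdk4 and Cdk6, the INK4 inhibitors Cdkn2c (p18) and Cdkn2d (p19), and the CIP/KIP inhibitors Cdkn1a (p21), Cdkn1b (p27) and Cdkn1c (p57). They were taken by symbol from a fixed list and not by a cut on their values. The list was chosen with earlier results of these data known. All 10 were found among the 23413 genes of the deposited table. RNA was sequenced from hematopoietic stem cells (HSC), the self-renewing cells of the blood system, sorted from wild-type (WT) mouse bone marrow. The cells of 3 libraries were sorted as positive and those of the other 3 as negative for F4/80, a macrophage surface antigen. No treatment, age or sex is named, all libraries share the WT genotype, and each was made from 2000 to 5000 sorted cells. The series title names trogocytosis, the transfer of membrane pieces between cells, linked to the stem cell receptor c-Kit. The surface gate used to define an HSC is not stated, nor is the number of mice behind each group. The p-values below therefore rest on variation among libraries that could be technical repeats.

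D-type cyclins bind Cdk4 and Cdk6, and the complexes phosphorylate the retinoblastoma protein and its relatives, which releases E2F transcription factors and lets a cell enter S phase. INK4 proteins bind the kinases themselves and keep the cyclin off. CIP/KIP proteins bind cyclin-kinase complexes, chiefly those of Cdk2, and at the same time help cyclin D complexes to assemble. In mouse bone marrow, Cdkn1c is known for keeping HSC quiescent, Cdkn2c for limiting their self-renewal, and Cdk6 for timing their exit from quiescence.

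Of the 10 genes, 5 were higher in F4/80 positive than in F4/80 negative HSC (Ccnd3, Cdk4, Cdk6, Cdkn2c and Cdkn2d) and 2 were lower (Ccnd2 and Cdkn1c), while Ccnd1, Cdkn1a and Cdkn1b did not pass the test. A call is an adjusted p below 0.05 in edgeR's quasi-likelihood test over the 14451 genes with enough counts, and all 10 genes had enough. Calls took 20.5% of these genes, with 9.65% higher and 10.9% lower. The 2 kinases and the 2 INK4 inhibitors were all higher, whereas of the 3 D cyclins 1 was higher and 1 lower, and of the 3 CIP/KIP inhibitors 1 was lower. The median log2 fold change of the 10 genes was 0.284, against -0.027 over all tested genes. The levels of 7 of the 10 genes did not overlap between the groups, as for 40.6% of all tested genes.

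The promoter sequences of both INK4 genes and of Cdk4 are shown: the first pair because their calls held in every alternative, the third for its repeated E-boxes. They are from RefSeq on GRCm38.p6, run 5′ to 3′ on the gene's own strand, and span 250 bases before to 50 bases after the annotated start. Of the 10 genes, 7 had an entry there, with 10 promoters in all, and Ccnd1, Ccnd2 and Cdkn1c had none. Capitals mark matches on either strand to the E2F core (TTNNCGC with C or G at each N), the E-box CACGTG bound by Myc and its relatives, and the GC box GGGCGG bound by Sp factors.
Cdkn2c, chr4:109666707-109667006, minus strand: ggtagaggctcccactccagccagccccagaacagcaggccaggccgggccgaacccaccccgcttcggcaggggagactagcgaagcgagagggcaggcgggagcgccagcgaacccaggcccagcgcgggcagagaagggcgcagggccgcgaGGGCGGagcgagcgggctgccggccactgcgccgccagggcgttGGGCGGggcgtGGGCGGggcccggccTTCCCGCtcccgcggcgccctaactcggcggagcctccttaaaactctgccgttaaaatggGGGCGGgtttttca
Cdkn2d, chr9:21291160-21291459, minus strand: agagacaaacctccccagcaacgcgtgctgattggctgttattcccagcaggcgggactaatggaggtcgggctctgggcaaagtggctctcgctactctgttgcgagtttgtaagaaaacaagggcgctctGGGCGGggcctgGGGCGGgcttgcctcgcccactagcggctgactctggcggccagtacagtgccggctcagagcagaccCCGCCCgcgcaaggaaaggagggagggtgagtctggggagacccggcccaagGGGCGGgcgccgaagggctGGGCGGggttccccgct
Cdk4, chr10:127063285-127063584, plus strand: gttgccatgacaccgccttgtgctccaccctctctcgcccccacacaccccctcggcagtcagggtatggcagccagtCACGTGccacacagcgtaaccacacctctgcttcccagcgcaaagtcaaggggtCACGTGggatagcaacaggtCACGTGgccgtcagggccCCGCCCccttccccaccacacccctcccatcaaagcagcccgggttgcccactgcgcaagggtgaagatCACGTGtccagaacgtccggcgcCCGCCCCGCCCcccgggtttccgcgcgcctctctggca
The upstream Cdkn2c promoter held the E2F word TTCCCGC with its first base 25 bases before the start. It was the 1 of the 10 promoters with an E2F core, a word present in 9.57% of 32851 promoters of this length. These 32851, called all promoters here, leave out 1 chromosome. The Cdk4 promoter held 4 E-boxes, the Cdk6 promoter and the downstream Cdkn2c promoter 1 each, and the others none. At least 1 E-box was present in 7.15% of all promoters and at least 4 in 0.0244%. GC boxes lay in 7 of the 10 promoters, against 35.7% of all promoters, and in the Cdk4 promoter the last 2 of them overlap. The CHR word TTTGAA, found in promoters of late cell cycle genes, was in none of the 10 promoters, against 17.9% of all. A match is a description of letters and says nothing about occupancy.

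The kinases come first because they carry the activity that the other genes turn on or off. Cdk4 had 727, 818 and 756 CPM (read counts scaled to library size with TMM factors) in F4/80 positive replicates 1 to 3, against 644, 677 and 541 CPM in F4/80 negative replicates 1 to 3. Every positive library lay above every negative one. The means were 767 ± 46.6 and 621 ± 70.9 CPM (SD, n = 3 each), a log2 fold change of 0.31 (SE 0.09, edgeR adjusted p = 0.0477). This call sat close to the threshold and was lost without positive replicate 1 (0.35, adjusted p = 0.0760), positive replicate 2 (0.26, 0.139), positive replicate 3 (0.32, 0.113), negative replicate 1 (0.33, 0.0737) or negative replicate 3 (0.22, 0.106), all by edgeR. It was also lost with upper-quartile factors (0.27, adjusted p = 0.0725), with no composition factor (0.23, 0.0969) and with a minimum count of 50 (0.29, 0.0506).

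Cdk6, the kinase of the pair with the narrower tissue range and strong expression in blood progenitors, had 480, 326 and 388 CPM in F4/80 positive replicates 1 to 3. In F4/80 negative replicates 1 to 3 it had 305, 227 and 174 CPM. Positive replicate 2 was only slightly above negative replicate 1, and the groups did not overlap. The 1.69-fold difference (log2 0.76, SE 0.20, edgeR adjusted p = 0.0320) spanned 0.30 to 1.22 on the log2 scale (95% interval). Its call was lost without positive replicate 1 (0.60, adjusted p = 0.104), positive replicate 3 (0.78, 0.0831), negative replicate 2 (0.74, 0.0612) or negative replicate 3 (0.59, 0.0829) in edgeR.

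Ccnd2 and Ccnd3, the D cyclins of blood cells, differed in opposite directions. Ccnd2 had 321, 383 and 293 CPM in F4/80 positive replicates 1 to 3, against 419, 457 and 427 CPM in F4/80 negative replicates 1 to 3. All 3 positive libraries were below all 3 negative ones. The means were 333 ± 45.9 and 434 ± 20.1 CPM, 1.31-fold lower in positive HSC (log2 -0.38, SE 0.10, edgeR adjusted p = 0.0289). The call was lost without positive replicate 1 (-0.36, adjusted p = 0.0955), positive replicate 3 (-0.30, 0.102), negative replicate 2 (-0.34, 0.0606) or negative replicate 3 (-0.39, 0.0677) in edgeR.

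Ccnd3 showed the reverse order of the groups. It had 447, 512 and 464 CPM in F4/80 positive replicates 1 to 3 and 354, 409 and 368 CPM in F4/80 negative replicates 1 to 3. Again the groups did not overlap, and the differences between same-numbered libraries were close to each other, at 0.34, 0.32 and 0.33 in log2 CPM. The means of 474 ± 33.9 and 377 ± 28.8 CPM gave a log2 fold change of 0.33 (SE 0.08, edgeR adjusted p = 0.0245). The call was lost without positive replicate 2 (0.28, adjusted p = 0.0766), positive replicate 3 (0.35, 0.0670), negative replicate 1 (0.29, 0.0705) or negative replicate 3 (0.32, 0.0753), and with no composition factor (0.26, 0.0520), all in edgeR.

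Ccnd1, the D cyclin that leads in many solid tissues, was low in both groups. It had 7.66, 5.67 and 9.35 CPM in F4/80 positive replicates 1 to 3, against 7.86, 8.33 and 6.21 CPM in F4/80 negative replicates 1 to 3. The groups overlapped fully, and the log2 fold change of 0.02 had a 95% interval of -0.53 to 0.57 (edgeR adjusted p = 0.965).

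**Figure D1:**
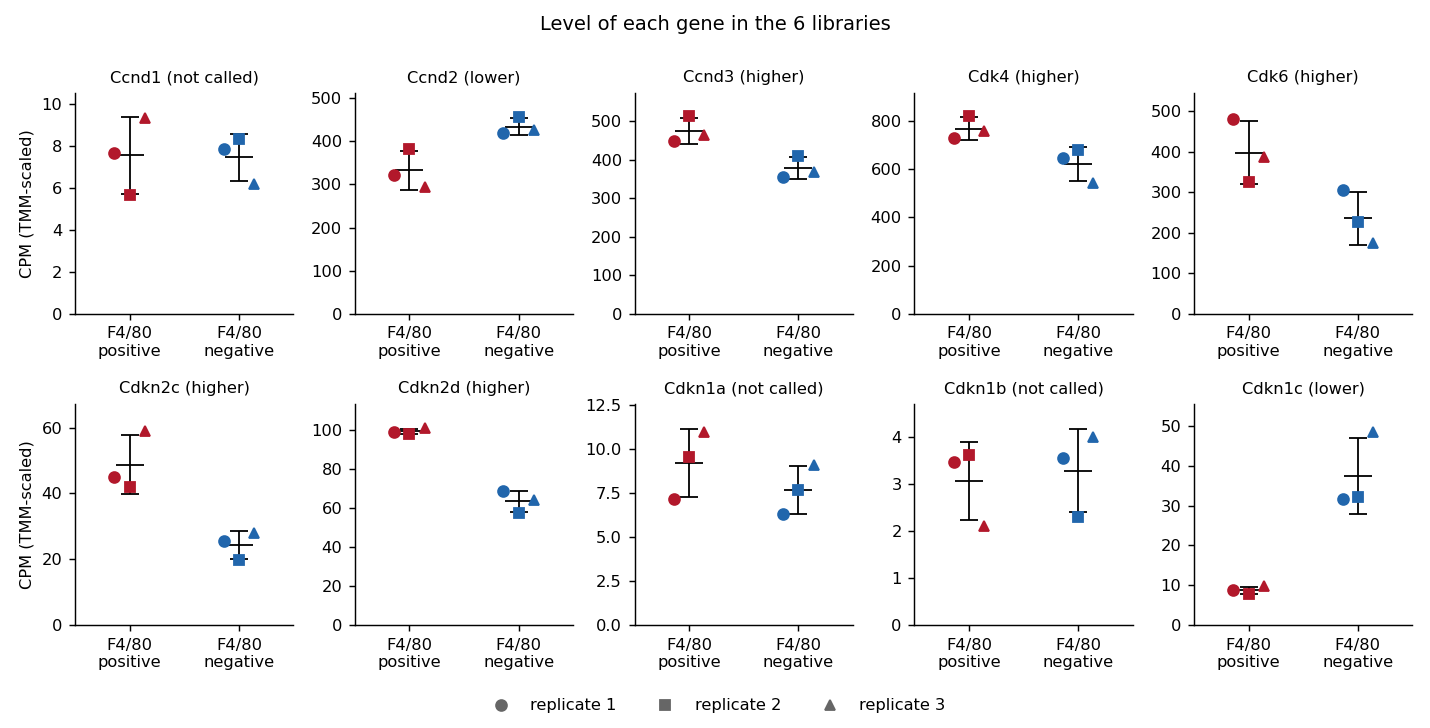
CPM (TMM-scaled, linear axes from 0, 1 panel per gene) in each library, with F4/80 positive HSC left in red and F4/80 negative HSC right in blue. Symbols mark the replicate number, and black bars the mean and SD (n = 3 each). Cdkn1c lies between 7.84 and 9.69 CPM in positive and between 31.6 and 48.4 CPM in negative libraries, while Ccnd1, Cdkn1a and Cdkn1b overlap between the groups.

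Both INK4 inhibitors on the list were higher in F4/80 positive HSC, and they kept that call in every alternative run. Cdkn2c had 45.2, 42.0 and 59.1 CPM in F4/80 positive replicates 1 to 3, against 25.6, 19.7 and 28.0 CPM in F4/80 negative replicates 1 to 3. The lowest positive library was well above the highest negative one. The log2 fold change was 1.0 (SE 0.18, 95% interval 0.60 to 1.39, edgeR adjusted p = 0.00616), with adjusted p between 1.81e-06 and 0.0435 over 17 alternatives.

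Cdkn2d varied little within the F4/80 positive group, at 98.8, 98.2 and 101 CPM in replicates 1 to 3. In F4/80 negative replicates 1 to 3 it had 68.5, 57.6 and 64.3 CPM. No negative library came near the positive ones. Its means were 99.2 ± 1.36 and 63.5 ± 5.50 CPM, a log2 fold change of 0.65 (SE 0.09, edgeR adjusted p = 0.00274), with adjusted p between 3.03e-08 and 0.0439 over 17 alternatives. Of the other INK4 genes, Cdkn2b (p15) had 0 counts in all 3 positive libraries and in negative replicates 1 and 3, with 2 counts in negative replicate 2. Cdkn2b was not tested, and no entry with the symbol Cdkn2a was found, so Cdkn2a could not be read.

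The CIP/KIP inhibitor Cdkn1c showed the widest difference of the 10 genes. It had 8.68, 7.84 and 9.69 CPM in F4/80 positive replicates 1 to 3, against 31.6, 32.2 and 48.4 CPM in F4/80 negative replicates 1 to 3. The positive libraries were close together, and negative replicate 3 stood above the other two of its group. On the log2 scale the difference was -2.10 (SE 0.20, 95% interval -2.55 to -1.64, edgeR adjusted p = 0.000750). It stayed called in all 17 alternatives, with adjusted p between 9.48e-20 and 0.0105 and the log2 fold change between -2.20 and -1.86. Among the 1572 genes called lower, 237 had a larger fold.

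Cdkn1a, the p53-induced inhibitor, had 7.18, 9.57 and 11 CPM in F4/80 positive replicates 1 to 3, against 6.35, 7.70 and 9.09 CPM in F4/80 negative replicates 1 to 3. The groups overlapped, although within each replicate number the positive library was higher, by 0.18, 0.31 and 0.28 in log2 CPM. The log2 fold change was 0.26 with a 95% interval of -0.26 to 0.79 (edgeR adjusted p = 0.451). Cdkn1b, an inhibitor held in check largely by protein turnover, rested on few reads: 65, 65 and 43 counts in F4/80 positive replicates 1 to 3 and 73, 44 and 78 counts in F4/80 negative replicates 1 to 3. No order of the groups was visible, and the interval of its log2 fold change ran from -0.88 to 0.67 (edgeR adjusted p = 0.858). Neither interval excludes a difference as large as that of Cdk4 or Ccnd3.

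**Figure D2:**
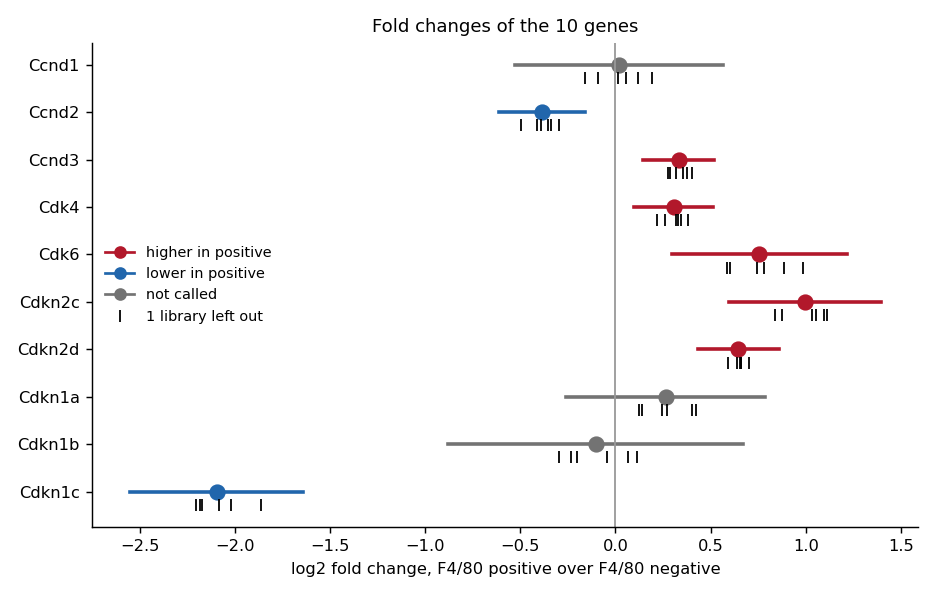
Log2 fold change of F4/80 positive over F4/80 negative HSC for each gene (dots) with its 95% interval (bars); black ticks give the value with 1 library left out. Red genes were called higher, blue lower and grey not called. Cdkn1c lies at -2.10, Cdkn2c at 1.0 and Cdkn2d at 0.65, and the ticks of Ccnd1 and Cdkn1b fall on both sides of 0.

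Levels of different genes were compared in the authors' FPKM, which divide by gene length. Orders and ratios between genes thus depend on the authors' lengths, from 1574 bases for Cdkn2d to 13989 for Cdk6. In CPM, without division by length, Cdkn2d (99.2 in positive HSC) lay below Ccnd3 (474), Cdk6 (398) and Ccnd2 (333). Cdk4 was the most abundant of the 10 in both groups, with mean FPKM of 236 in F4/80 positive and 189 in F4/80 negative HSC, a level exceeded by 0.996% and 1.09% of tested genes. In positive HSC the order below it was Cdkn2d (62.9 FPKM), Ccnd3 (54.0), Ccnd2 (35.3), Cdk6 (28.4), Cdkn2c (18.1), Cdkn1c (4.28), Cdkn1a (2.60), Ccnd1 (1.60) and Cdkn1b (0.672). Of these neighbours, Ccnd2 and Cdk6 overlapped between libraries and the rest did not. In negative HSC the order was Ccnd2 (45.7 FPKM), Ccnd3 (42.6), Cdkn2d (39.9), Cdkn1c (18.2), Cdk6 (16.7), Cdkn2c (9.0), Cdkn1a (2.15), Ccnd1 (1.57) and Cdkn1b (0.715). There Ccnd2, Ccnd3 and Cdkn2d overlapped in sequence, as did Cdkn1c with Cdk6, and Cdkn1a with Ccnd1.

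Within families, the make-up changed more than the total for the D cyclins. Ccnd3 made up 58.8%, 58.2% and 61.4% of D cyclin FPKM in F4/80 positive replicates 1 to 3, against 46.6%, 48.1% and 47.3% in F4/80 negative replicates 1 to 3. In FPKM, Ccnd3 thus led Ccnd2 in every positive library and Ccnd2 led Ccnd3 in every negative one. The Ccnd2 to Ccnd3 ratio was 0.652 ± 0.0556 in positive and 1.08 ± 0.0316 in negative HSC (SD, n = 3 each). Which of them leads depends on the authors' gene lengths, 8775 bases for Ccnd3 and 9409 for Ccnd2. The relative shift of the ratio between groups does not. The summed level of the D cyclins overlapped between groups, at 90.8 ± 7.50 FPKM in positive and 89.8 ± 6.04 FPKM in negative HSC. Shares and ratios are descriptions and were not tested.

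Cdk4 held most of the kinase FPKM in both groups, and the Cdk6 share of 10.8 ± 2.42% in F4/80 positive HSC overlapped that of 8.03 ± 1.64% in F4/80 negative HSC. Within each replicate number the Cdk6 share was higher in the positive library (13.3%, 8.47% and 10.6% against 9.91%, 7.24% and 6.95%). Both kinases summed to 264 ± 7.87 FPKM in positive and 206 ± 25.3 FPKM in negative HSC, without overlap. Kinase FPKM stood at 2.91 ± 0.152 times D cyclin FPKM in positive HSC and 2.29 ± 0.263 times in negative HSC, again without overlap.

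The balance between the inhibitor families also differed without overlap. INK4 FPKM were 11.3, 10.6 and 10.3 times CIP/KIP FPKM in F4/80 positive replicates 1 to 3, against 2.94, 2.38 and 1.89 times in F4/80 negative replicates 1 to 3. The INK4 sum was higher in every positive library (81.1 ± 4.69 against 48.9 ± 4.51 FPKM), and the CIP/KIP sum was lower in every one (7.55 ± 0.699 against 21 ± 5.08 FPKM). Within the CIP/KIP family Cdkn1c made up 56.7 ± 4.02% of FPKM in positive and 86.2 ± 0.998% in negative HSC, and Cdkn1a 34.2 ± 4.80% and 10.3 ± 1.24%, although the level of Cdkn1a itself overlapped between groups. Within the INK4 family the Cdkn2c share overlapped between groups, at 22.3 ± 2.92% in positive and 18.3 ± 1.84% in negative HSC. Within each replicate number it was higher in the positive library (21.1%, 20.1% and 25.6% against 18.0%, 16.7% and 20.3%). The kinase to INK4 ratio also overlapped, at 3.26 ± 0.25 in positive and 4.25 ± 0.816 in negative HSC. Within each replicate number this ratio was lower in the positive library (3.24, 3.53 and 3.03 against 4.15, 5.11 and 3.49).

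**Figure D3:**
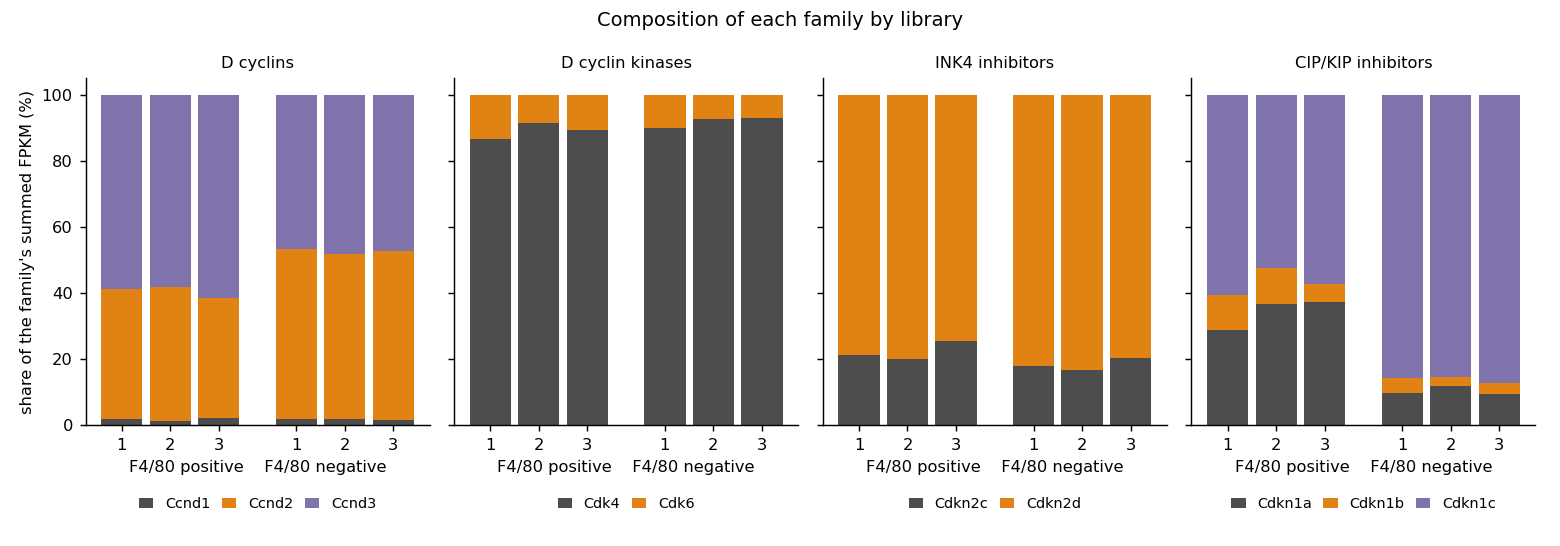
Share of each gene in its family's summed FPKM (%, stacked to the family total) for the D cyclins, D cyclin kinases, INK4 and CIP/KIP inhibitors, with F4/80 positive replicates 1 to 3 left and F4/80 negative replicates 1 to 3 right in each panel. The Ccnd3 share is 58.2% to 61.4% in positive and 46.6% to 48.1% in negative libraries, and the Cdkn1c share 52.5% to 60.4% and 85.5% to 87.4%.

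The genes on which these proteins act, and those that act on them, were read from lists of the G1 network. Of 5 genes of the next step, the E and A cyclins with Cdk2 and its activating phosphatase, 3 were higher and none lower. Ccna2, the S phase cyclin, had 387 ± 32.3 CPM in F4/80 positive and 174 ± 24.6 CPM in F4/80 negative HSC (log2 1.15, SE 0.11, edgeR adjusted p = 0.000750). Ccne2 was higher by 0.86 (adjusted p = 0.00235) and Cdk2 by 0.32 (adjusted p = 0.0195) on the log2 scale, while Ccne1 (0.24, adjusted p = 0.198) and Cdc25a (0.13, adjusted p = 0.568) were not called in edgeR. The Cdk2 call was lost without positive replicate 1 (adjusted p = 0.0587), positive replicate 2 (0.0615) or positive replicate 3 (0.0583).

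Of 13 pocket protein and E2F genes, 4 were higher and 2 lower. The pocket proteins divided: Rbl1 (p107), typical of cycling cells, had 191 ± 10.7 CPM in F4/80 positive and 134 ± 6.30 CPM in F4/80 negative HSC (log2 0.50, edgeR adjusted p = 0.00400). Rbl2 (p130), typical of resting cells, had 132 ± 6.78 CPM in positive and 187 ± 9.41 CPM in negative HSC (-0.50, adjusted p = 0.00407). Rb1 itself had 9.92 ± 2.48 CPM in positive and 7.61 ± 1.89 CPM in negative HSC and was not called (adjusted p = 0.327). The repressor E2F genes E2f8 (log2 1.09, edgeR adjusted p = 0.00291) and E2f7 (0.93, 0.00777) and the E2F partner Tfdp1 (0.52, 0.00781) were higher, and E2f5, a partner of p130, was lower (-1.32, 0.0142). The E2f5 call was lost without positive replicate 3 (adjusted p = 0.0506) or negative replicate 3 (0.0512).

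Of 6 genes for the CDK-activating kinase and the chaperones of Cdk4 and Cdk6, edgeR called 0, with 1 at an unadjusted p below 0.05, and their median log2 fold change was 0.082. DESeq2 called 1 of them, limma-voom 0, and edgeR with the replicate block 2, the chaperone genes Hsp90aa1 and Hsp90ab1, both higher. Of 18 genes for turnover of D cyclins and CIP/KIP proteins, 4 were higher and 2 lower. Skp2, the ubiquitin ligase receptor for p27 and p57, had 59.0 ± 6.77 CPM in F4/80 positive and 36.5 ± 3.05 CPM in F4/80 negative HSC (log2 0.69, edgeR adjusted p = 0.00552). Its cofactor Cks1b was higher by 0.90 (adjusted p = 0.00141), and Dtl, the receptor that marks p21 for destruction in S phase, by 0.63 (adjusted p = 0.00283). Rbx1 (0.31, adjusted p = 0.0357), Fbxw7 (-0.52, 0.0302) and Fbxl12 (-0.72, 0.0391), further parts of ubiquitin ligases, were called less firmly. The Rbx1 call was lost without any one library except negative replicate 2 (adjusted p = 0.0504 to 0.110). The Fbxw7 call was lost without any one except positive replicate 1 (0.0515 to 0.101), and the Fbxl12 call without any one except negative replicate 2 (0.0734 to 0.115) and with limma-voom (0.0502). Rbx1 was also not called with upper-quartile factors (0.0638) or no composition factor (0.0763).

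Of 25 tested transcription and chromatin regulators linked to these 10 genes in the literature, 1 was higher and 8 were lower. Gfi1, a repressor that restrains HSC cycling, had 1.55 ± 0.687 CPM in F4/80 positive and 13.9 ± 4.59 CPM in F4/80 negative HSC (log2 -3.16, SE 0.38, edgeR adjusted p = 0.00135). Notch1 (log2 -1.38, edgeR adjusted p = 0.00178), the TGF-beta mediator Smad3 (-0.66, 0.00826) the forkhead factor Foxo1 (-1.54, 0.0116) and the cytokine signal transducer Stat3 (-0.28, 0.0169) were also lower. Ezh2, a polycomb methyltransferase typical of dividing cells, was the 1 that was higher (0.76, adjusted p = 0.00399). With the replicate block 2 were higher, Gata2 being added, and 10 lower. Myc was not called, with 464 ± 58.1 CPM in positive and 439 ± 43.8 CPM in negative HSC (0.08, adjusted p = 0.630), nor was Trp53 (0.14, adjusted p = 0.297). The Foxo1 call was lost without positive replicate 2 (adjusted p = 0.0501) or positive replicate 3 (0.0514), and the Stat3 call without positive replicate 1 (0.0590), positive replicate 3 (0.0772) or negative replicate 3 (0.0564).

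Beyond the D cyclins, 17 other cyclins gave 4 higher and 1 lower, and 14 other CDKs gave 1 of each. With the replicate block 2 cyclins and 2 CDKs were lower, Ccny and Cdk17 being added. The mitotic cyclins Ccnb1 (log2 1.24, edgeR adjusted p = 0.000872) and Ccnb2 (1.19, 0.000750), the ubiquitin ligase cyclin Ccnf (1.08, 0.00110) and the mitotic kinase Cdk1 (1.1, 0.000841) were higher, and Cdk18 was lower (-1.09, 0.00552). Ccnq (0.37, edgeR adjusted p = 0.0305) and Ccnl1 (-0.37, 0.0296) lost their calls without any one library (adjusted p = 0.0521 to 0.0996), except that Ccnq kept its call without negative replicate 2. Ccnq was also not called with no composition factor (0.0594). All of 22 proliferation markers were higher, with a median log2 fold change of 1.065 and summed levels of 9231 to 9540 CPM in F4/80 positive and 4914 to 6026 CPM in F4/80 negative libraries. The 6 with the smallest p were Hmmr, Tpx2, Aurkb, Ube2c, Birc5 and Cdc20, at log2 fold changes of 1.08 to 1.31. Mki67, a marker of cycling cells, had 239 ± 10.6 CPM in positive and 115 ± 33.9 CPM in negative HSC. In bulk RNA, a larger share of cycling cells and more RNA of these genes per cell cannot be told apart.

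**Figure D4:**
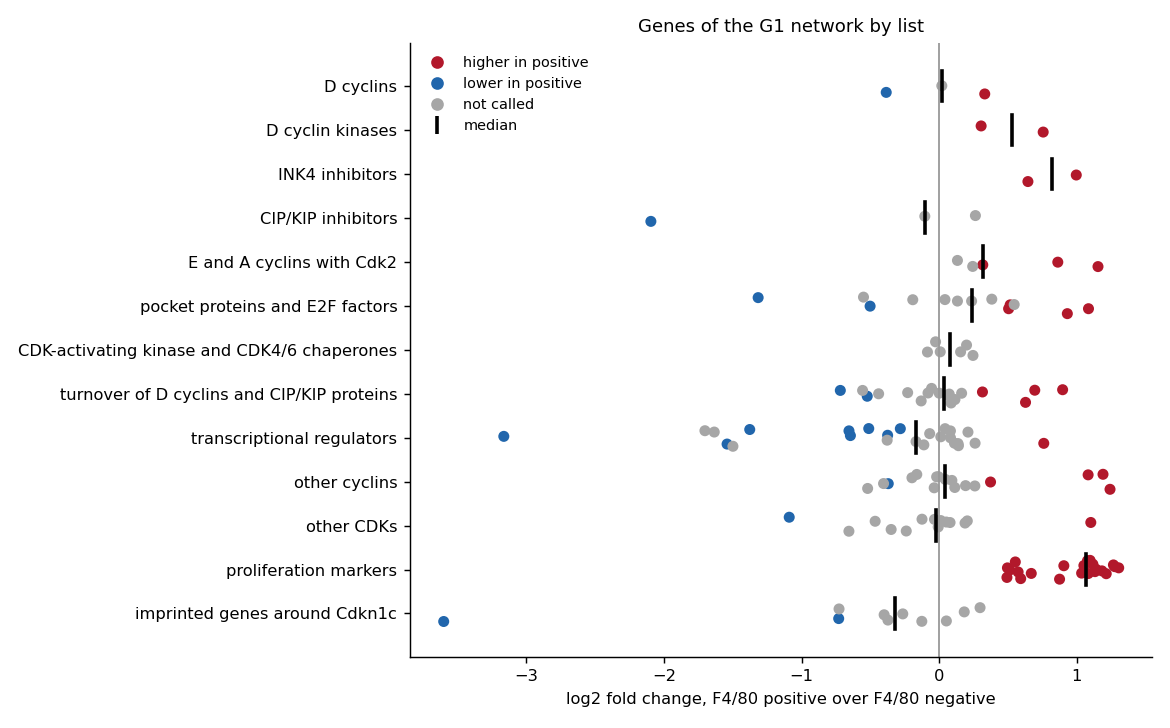
Log2 fold change of F4/80 positive over F4/80 negative HSC for each tested gene (dots, spread vertically at random) in the lists of the G1 network; red, higher; blue, lower; grey, not called; black bars, list medians. All 22 proliferation markers lie above 0 with a median of 1.065, and 8 of 25 transcriptional regulators were lower.

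Genome neighbours were read to see whether a difference extended past the gene. Within 100 kb of the 7 called genes lay 31 tested coding genes, of which 3 were lower, against 10.9% of all tested genes. These were Frs3 near Ccnd3 (log2 -1.33, edgeR adjusted p = 0.0227), Agap2 near Cdk4 (-0.83, 0.0348) and Slc22a18 near Cdkn1c. The Frs3 call was lost without positive replicate 1, positive replicate 2 or negative replicate 3 (adjusted p = 0.0720 to 0.0765), and the Agap2 call without positive replicate 1, positive replicate 3, negative replicate 2 or negative replicate 3 (0.0513 to 0.110). Cdkn1c, at chr7:143012076-143014787 (GRCm39, minus strand), lies in an imprinted domain and is expressed from the maternal allele in mouse. Of 10 tested imprinted genes around it, 2 were lower and none higher, or 2 and 1 (Tssc4) with the replicate block. Its near neighbour Slc22a18, a maternally expressed transporter gene 12.69 kb away, had 11.8 ± 1.64 CPM in F4/80 positive and 19.7 ± 2.86 CPM in F4/80 negative HSC (log2 -0.73, edgeR adjusted p = 0.0212). This call was lost without positive replicate 1 (adjusted p = 0.0735), positive replicate 3 (0.0786) or negative replicate 3 (0.0657). Phlda2 (-0.40, adjusted p = 0.307) and the paternally expressed noncoding RNA Kcnq1ot1 (-0.37, adjusted p = 0.394) were not called. Trpm5 was called lower (adjusted p = 0.00565) at 0.124 ± 0.0374 CPM in positive HSC, below the 3-count floor, and 1.56 ± 0.723 CPM in negative HSC.

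The remaining genes lie on several chromosomes, and some share bases with a gene on the opposite strand. Cdk4 (chr10:126899403-126903789) shares 641 bases with Tspan31, which was not called (edgeR adjusted p = 0.340), Ccnd3 (chr17:47815976-47910616) 361 bases with Bysl (0.139, or 0.0223 and higher with the replicate block and 0.0499 without negative replicate 2), and Ccnd1 (chr7:144483668-144493662) 1771 bases with the gene listed as LTO1 (0.186). Cdk6 (chr5:3391485-3581008) shares 8013 bases with Gm17590 (0.906). The use of strand in counting is not stated, so reads in shared bases cannot be assigned with certainty. The pseudogene copy Ccnd3-ps had at most 1 count in any library.

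The genes whose levels ran most like each called gene were taken by Pearson correlation of log2 CPM over the 6 libraries among 8231 well-expressed genes. The 3 closest were Bid, Hmga1 and Snap23 for Ccnd2 (r = 0.993 to 0.998), Pdia3, Arpc5l and Park7 for Ccnd3 (0.996 to 0.997), and Ndufab1, Hars and Cyc1 for Cdk4 (0.998 to 0.999). For Cdk6 they were Zfp280b, Pcif1 and Usp48 (0.994), for Cdkn2c Rab37, Rab27b and Cenpl (0.993 to 0.995), for Cdkn2d Ccp110, Dapp1 and Eloc (0.995 to 0.998), and for Cdkn1c Arhgef6, Map3k2 and Grb10 (0.997 to 0.999). With 6 points that fall into 2 groups and share libraries, these values describe likeness in these libraries and carry no p.

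The sorted groups differed in much else. Adgre1, which encodes F4/80, had 32.1 ± 9.46 CPM in F4/80 positive and 2.30 ± 0.782 CPM in F4/80 negative HSC, the direction that the labels give. Of 19 tested macrophage markers 18 were higher, with a median log2 fold change of 3.016. Their summed levels were 1162 to 1883 CPM in positive and 637 to 720 CPM in negative libraries. Of 8 megakaryocyte markers 5 were higher. The untested macrophage marker Marco had 9, 9 and 1 counts in F4/80 positive replicates 1 to 3 and 0 counts in all 3 negative libraries. Of 13 genes used to mark stem cells by presence or absence, 7 were lower, among them Procr, Hlf and Fgd5. The 1 that was higher was Cd48, a mark by absence (adjusted p = 0.0474 in edgeR, 0.0652 and so not called in DESeq2). Kit was not called, although it was lower with the replicate block. Of 7 B cell markers edgeR called 0, with 3 at an unadjusted p below 0.05 and 4 called lower with the block, and their median log2 fold change was -2.39, while their sums overlapped at 51.6 to 78.6 CPM in positive and 59.0 to 107 CPM in negative libraries. Of 10 erythroid markers 1 was higher and none lower, or 2 and 2 with the block, and of 8 neutrophil markers 1 was lower, with overlapping sums for both lists. The T cell genes Cd3e, Cd3d and Cd3g, too low to test, had 0 counts in all 3 positive libraries and 3 to 21 counts in each negative library, and of 2 tested T and NK cell markers 1 (Klrb1c) was lower. Positive libraries held counts for 18758 to 19292 genes and negative ones for 19390 to 20083, without overlap, at overlapping totals of 18637526 to 21042379 and 18649394 to 20103661 counts. The part of these marker differences, and of the number of genes with counts, in the results for the 7 called genes was not tested.

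The authors' deposited table gave the same calls for the 10 genes at an adjusted p below 0.05. In the authors' deposited table the adjusted p was 1.96e-20 for Cdkn1c, 1.67e-07 for Cdkn2d, 9.53e-07 for Cdkn2c, 0.000262 for Cdk6, 0.00571 for Ccnd3, 0.00703 for Ccnd2 and 0.020 for Cdk4.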

How the data were processed

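Libraries came from column-extracted total RNA and a SMARTer stranded kit, per the labels' protocols. HISAT2 2.0.5 and DESeq2 stand in the submitters' processing notes beside the mouse build GRCm39 (also mm39). The read counter, gene annotation and strand setting are not stated. The authors deposited raw counts, which were tested, and FPKM values, used for levels between genes. The authors' deposited log2 fold changes and p-values were read for comparison only. A signal column, normalized counts deposited by the authors, was not used.

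Counts were fitted in R 4.3.3 with edgeR 4.0.16 (filterByExpr, minimum count 10 and minimum total 15, TMM factors, glmQLFit and glmQLFTest without covariates), with Benjamini-Hochberg adjustment over 14451 genes. Log2 CPM used a prior count of 2. Alternatives were other factors and filters, DESeq2 1.42.0, limma-voom (limma 3.58.1), a replicate block and left-out libraries. The scripts were tested on simulated data. Same-numbered libraries deviated together (r = 0.214, 0.284 and 0.256), so the numbers of the labels were taken to pair the libraries. The reported fit leaves this pairing out, and the alternative with the replicate block uses it. No 2 libraries of a group agreed within sampling noise. A floor of 3 counts is 0.143 to 0.161 CPM and covers counting error only. Genes named were the 10 themselves, up to 6 called genes of each list by p, the E and A cyclin list, Rb1, Rbl1, Rbl2, Mki67, Adgre1, called or overlapping neighbours and the 3 genes most alike; any other gene was named after its values were seen, and 1 result on neighbours is not reported here. The genes and lists were chosen with earlier results of these data known.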

Additional observations from a re-analysis of the deposited data

How the results depend on the processing

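Over 17 alternatives, no called gene among the 10 changed direction; Cdkn1c, Cdkn2c and Cdkn2d kept their calls in all of them, and Ccnd1, Cdkn1a and Cdkn1b were never called, with Ccnd1 and Cdkn1b taking either sign. The replicate block, which uses the pairing, changed no call among the 10 genes. With it the edgeR adjusted p was 0.00364 for Ccnd2, 0.00233 for Ccnd3 and 0.00916 for Cdk4. The block raised the calls over all genes to 2105 higher and 2429 lower, against 1395 and 1572 without it. It added E2f4, Fbxo31, Ddb1, Gp5 and Flt3 to the calls of their lists. With no composition factor, 3 of the 10 genes were called higher, since Ccnd3 (0.26, adjusted p = 0.0520) and Cdk4 (0.23, 0.0969) were lost, the median of all genes shifted by -0.075 and 32.3% of calls were higher, against 47.0% in the reported fit and 39.2% with upper-quartile factors. Cdk4 also lost its call with upper-quartile factors (0.27) and the strict filter (0.29). Leaving out 1 library, or both of 1 number, gave 2 to 4 genes called higher and 1 to 2 called lower of the 10, and 380 to 1437 higher and 413 to 1612 lower over all genes. The log2 fold change then ranged over -0.49 to -0.30 for Ccnd2, 0.28 to 0.40 for Ccnd3, 0.22 to 0.38 for Cdk4 and 0.59 to 0.99 for Cdk6, with edgeR adjusted p up to 0.167, 0.151, 0.201 and 0.171, each without both libraries numbered 3. Rbl1, Rbl2, E2f7, Tfdp1, Dtl, Skp2, Smad3 and Cdk18 lost their calls only without both libraries numbered 3 (adjusted p = 0.0516 to 0.0986). These fits have fewer samples. Depth limits Cdkn1b most, at 43 to 78 counts a library. Family shares from counts divided by gene length equal those from FPKM by construction. Within a library the measures differ only by a constant factor, so this is no check of the shares.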

Other observations

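Lockd, a long noncoding RNA gene that starts 3.58 kb downstream of Cdkn1b on the same strand and was chosen after its values were seen, had 593, 596 and 709 counts in F4/80 positive replicates 1 to 3, against 327, 354 and 320 counts in F4/80 negative replicates 1 to 3. The groups did not overlap, and the log2 fold change was 0.97 (SE 0.13, edgeR adjusted p = 0.00181, with adjusted p between 2.69e-09 and 0.0350 over 17 alternatives). Its means were 33.2 ± 1.47 CPM in positive and 17.0 ± 1.38 CPM in negative HSC. Cdkn1b itself had 3.07 ± 0.837 CPM in positive and 3.29 ± 0.881 CPM in negative HSC and was not called. Per length, Lockd lay between 4.39 and 4.82 FPKM in positive and between 2.17 and 2.56 FPKM in negative libraries, above Cdkn1b in each library.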
